A study of Mus musculus with 10 samples.

Results

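CircRNAs spanning 1 to 10 kb were 3179 of the 9029 circRNAs listed in the mouse retina, and the rows of this span are called members in what follows. Members were chosen by name alone: their row is named by chromosome, start, end and strand, and the distance between both ends is at least 1000 and under 10000 bases. Another 975 rows carry a database ID without a position and could not be placed in a span class, so they are no members whatever their length. Of the 8054 rows named by position, 672 span under 1 kb, 3566 span 10 to 50 kb and 637 span 50 kb or more.

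A circRNA forms when the splice donor at the end of an exon is joined back to the splice acceptor of the same or an upstream exon, which leaves a closed RNA without a cap or a poly(A) tail. Such molecules resist exonucleases, can persist for long in cells that no longer divide, and are known to be abundant in neural tissue, the retina included. In the retina, late progenitors still divide around birth, rods mature in the first postnatal weeks, and the eyes open at about the time of the fourth age sampled here. The span of a circRNA is the genomic distance between both joined sites. It includes the introns between them, so the mature circle is usually shorter than its span.

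Whole retinae of C57BL/6 mice were collected at embryonic day 18.5 (E18.5) and postnatal days 1, 7, 14 and 30 (P1, P7, P14 and P30), with 2 libraries per age and no genotype or treatment besides age. Ribosome-depleted total RNA was sequenced, and the table of 10 libraries holds estimated counts of circRNAs. Age therefore could not be told apart from anything else that differed between the dissections. In whole tissue, fewer cells of a type and less RNA per cell cannot be told apart. The table pairs no circRNA with a gene, so neither the tissue nor its cell types could be checked on marker genes, and host genes are not given. Positions are in the mm9 build, with the first base counted as 1. Whether the ends lie on annotated exons was not analysed here, because the annotation at hand is of another build. For the same reason no sequence is shown.

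The libraries differed in depth. Totals over all circRNAs ran from 6606.5 counts in a library of E18.5 to 28658 counts in one of P30, and the members held between 1150 and 6323.5 of them. The values come in steps of 0.5 with none between 0 and 2. A value of 0 is therefore below that minimum or was not called, so it sets no upper limit. Rows on the Y chromosome were above 0 only in P14 replicate 1 (14 counts in all) and P30 replicate 3 (37 counts). The labels do not give the sex of the animals, and its part in the results was not tested. The members on Y were 1 of those listed in the first and 3 in the second library.

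More members were listed at later ages. At E18.5, 216 and 218 members were above 0, a mean of 217 ± 1.41 (SD, n = 2). At P1 the mean was 334 ± 19.8 (SD, n = 2) and at P7 332 ± 50.2 (SD, n = 2). It was 479 ± 105 (SD, n = 2) at P14, with 405 and 553 members in its libraries, and 848 ± 8.49 (SD, n = 2) at P30. The P30 libraries, with 854 and 842 members, stood above all others, and the libraries of P1 and P7 overlapped. The P30 mean was 3.91 times that of E18.5. This ratio was 2.13 for circRNAs under 1 kb, 4.65 for those of 10 to 50 kb, 7.30 for those of 50 kb or more, 1.70 for database IDs and 3.31 for all rows. Depth moved with this number. At equal totals of 6569 counts, the smallest library total after rounding, the expected number of members with at least 2 counts was 213 ± 4.68 at E18.5 and 296 ± 0.984 at P30 (SD, n = 2), a ratio of 1.39. The same ratio was 1.33 for all rows, 1.70 for 10 to 50 kb, 2.42 for 50 kb or more and 1.02 for database IDs, and for circRNAs under 1 kb it was 0.712, below 1. These numbers are a description, since 2 libraries against 2 allow no exact test at a threshold of 0.05.

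**Figure D1:**
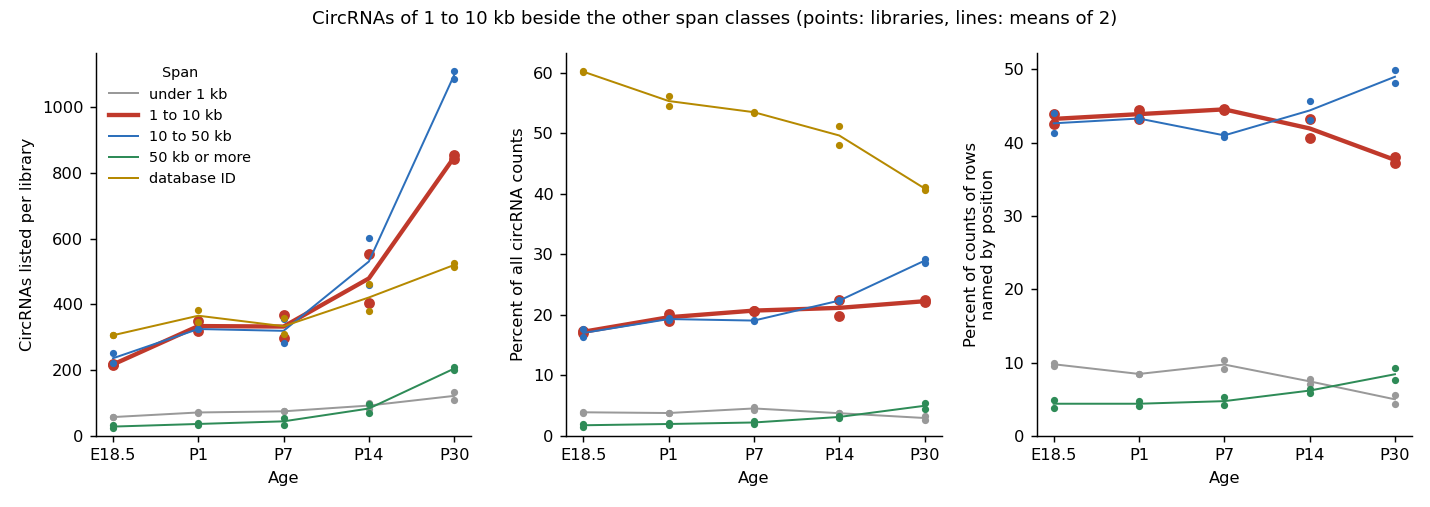
Number of circRNAs listed (left), percent of all circRNA counts (middle) and percent of the counts of rows named by position (right) against age, with points for libraries and lines for the mean of 2 libraries. Members of 1 to 10 kb (thick red) rose from 217 listed at E18.5 to 848 at P30, gained in the share of all counts and lost in the share of position-named counts.

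The share of counts that members held depended on what it was taken of. Of all circRNA counts, members held 17.2% ± 0.289 (SD, n = 2) at E18.5, 19.6% ± 0.842 at P1, 20.7% ± 0.0515 at P7, 21.1% ± 1.86 at P14 and 22.2% ± 0.252 at P30. Both P30 libraries were above both E18.5 libraries. Over the same ages the database IDs went from 60.2% ± 0.194 to 40.9% ± 0.414 (SD, n = 2). Of the counts of rows named by position alone, members held 43.2% ± 0.936 at E18.5 and 37.7% ± 0.690 at P30 (SD, n = 2), with both P30 libraries below both E18.5 libraries. Here the circRNAs of 10 to 50 kb went from 42.6% ± 1.96 to 49.0% ± 1.24. Those of 50 kb or more went from 4.38% ± 0.773 to 8.40% ± 1.12, and those under 1 kb from 9.77% ± 0.248 to 4.97% ± 0.816 (SD, n = 2). Members thus gained on the catalogued circRNAs and on those with shorter spans, and lost to those with longer spans.

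Most members were sparse, as were most rows of the table. Of the 3179 members, 2123 were above 0 in at least 1 library (66.8%, beside 70.5% of all rows) and 1056 were at 0 in all 10. Of the 2123, 1265 (59.6%, beside 56.1% of all rows) were listed in exactly 1 library, 834 in 2 to 9 libraries and 24 in all 10. In 1434 of them (67.5%, beside 62.9%) the highest count was at most 5, and 68 reached 20 counts in a library. Of the 356 members listed at E18.5, 78 were in both libraries (21.9%, beside 28.9% of all rows), and at P30 399 of 1297 (30.8%, beside 34.2%). Listed at a single age were 1381 members, 699 of them at P30, of which 97 were in both P30 libraries. At E18.5 alone there were 90 members, of which 5 were in both libraries, beside 294 and 10 of all rows. The number of members first listed at an age was 356 at E18.5, 360 at P1, 301 at P7, 407 at P14 and 699 at P30. Over all rows it was 1310, 978, 773, 1179 and 2125.

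Within the class, longer and shorter spans were listed alike. The median span was 4526 bases over all members, 4555 over those above 0 and 4372.5 over those at 0 throughout. In single libraries the median ran from 4188 bases in P7 replicate 2 to 4668 bases in P1 replicate 1, with no order by age. Members of 1 to 2 kb, 2 to 5 kb and 5 to 10 kb were above 0 in 67.3%, 65.3% and 67.9% of cases. Among the counts, however, those of 2 to 5 kb held 33.3% ± 0.779 of the member counts at E18.5 and 40.2% ± 0.491 at P30 (SD, n = 2). Those of 1 to 2 kb held 19.2% ± 3.73 and 15.1% ± 0.0693. Those of 5 to 10 kb held 47.5% ± 2.95 and 44.7% ± 0.422, a difference smaller than the SD at E18.5. Without the 2 members with the highest mean at P30, the 2 to 5 kb bin held 33.0% ± 0.776 and 35.9% ± 0.219.

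At the lower limit, chr5:122252090-122253089 with 1000 bases was the shortest member with at least 20 counts in sum (170.5), and the nearest row below it spanned 997 bases with 28 counts. At the upper limit, the longest such member spanned 9752 bases with 22 counts, and the next row above spanned 10067 bases with 51 counts. Members lay on all chromosomes in shares close to those of all rows named by position, from 8.93% on chromosome 2 and 8.05% on chromosome 11 (8.21% and 6.52% of all) to 2.45% on X (2.63%) and 0.126% on Y (0.137%). The + strand held 51.7% of members and 52.0% of all.

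The abundant members were few and went different ways. No member was among the 10 highest circRNAs of the table by mean counts per 1000000 of the library total (CPM), 6 were among the highest 50, and the highest member ranked 16. This was chr11:108295440-108301910 (+ strand, 6471 bases), which had 56.5 and 58.5 counts at E18.5, 84 and 76.5 at P1, 25 and 34.5 on P7, 18.5 and 25.5 on P14, and 65 and 83 at P30. On the CPM scale the E18.5 and P1 libraries were the highest and those of P14 the lowest, with 8380 ± 243 CPM at E18.5, 9066 ± 244 at P1, 3624 ± 1446 at P7, 1534 ± 53.4 at P14 and 2605 ± 413 at P30 (SD, n = 2). Next was chr10:25161379-25163760 (+, 2382 bases), which rose instead. Its counts were 6 and 3 at E18.5, 3 and 3 at P1, 27.5 and 11.5 on P7, 76.5 and 94 on P14, and 244.5 and 209.5 at P30, or 665 ± 345 CPM at E18.5 and 8005 ± 982 CPM at P30. The libraries of P7, P14 and P30 were all above those of E18.5 and P1. The third, chr4:8678471-8680295 (+, 1825 bases), went down. It had 41.5 and 42.5 counts at E18.5, 25.5 and 34 at P1, 36.5 and 24.5 on P7, 14.5 and 15 on P14, and 20.5 and 16.5 at P30, that is 6122 ± 225 CPM at E18.5 and 653 ± 109 CPM at P30. Its P14 and P30 libraries lay below all others on the CPM scale.

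**Figure D2:**
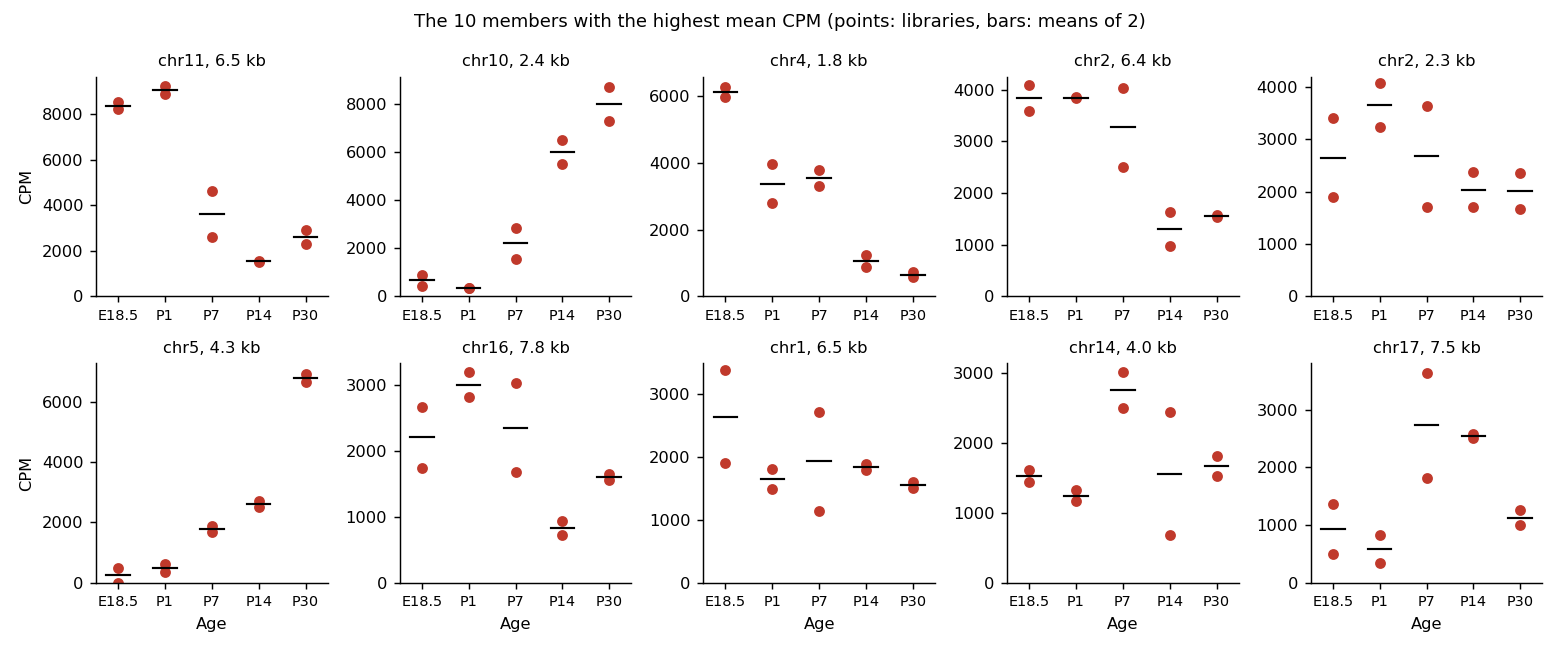
CPM of the 10 members with the highest mean CPM (panels, named by chromosome and span) against age, with points for libraries and bars for the mean of 2. The chr10 member of 2.4 kb went from 665 CPM at E18.5 to 8005 CPM at P30, the chr4 member of 1.8 kb from 6122 to 653 CPM, and the chr5 member of 4.3 kb from 246 to 6810 CPM.

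The member chr5:151406752-151411015 (−, 4264 bases) was the sixth by mean CPM and the second at P30. It had 0 and 3.5 counts at E18.5, 5.5 and 3 at P1, 18 and 12.5 on P7, 32 and 43 on P14, and 195 and 191.5 at P30. Its CPM was 246 ± 347 at E18.5, 2620 ± 138 at P14 and 6810 ± 181 at P30 (SD, n = 2), and both P30 libraries were above every other library. The other 6 of the 10 most abundant members had mean CPM between 1583 and 2761. Among these, chr2:37496371-37502805 (−, 6435 bases) had 3832 ± 360 CPM at E18.5 and 1550 ± 28.5 CPM at P30, and chr17:55630241-55637704 (+, 7464 bases) was highest at P7 (2728 ± 1283 CPM) and P14 (2543 ± 53.3 CPM).

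The 24 members above 0 in all 10 libraries held a shrinking part of the member counts, 25.9% ± 0.685 at E18.5, 22.1% ± 2.06 at P1, 21.3% ± 0.866 at P7, 16.3% ± 0.722 at P14 and 14.7% ± 0.815 at P30 (SD, n = 2). On the CPM scale, 13 of them were lower in both P30 libraries than in both E18.5 libraries, 4 were higher and 7 overlapped. The 159 rows of the whole table above 0 in all 10 libraries were not summed or split in this way. Neither result can therefore be called particular to members. CPM is a share of all listed counts, so a circRNA can lose CPM as counts of other rows are added. Whether this holds for these 24 members was not tested. The edgeR fit described next covered 22 of the 24 and called 4 of them between P30 and E18.5. Of all 65 members in that fit, 2 were called lower, so most of the 13 falls in CPM were not called.

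To compare ages circRNA by circRNA, counts were rounded and fitted with edgeR's quasi-likelihood test over the whole table, after removal of low counts and scaling by trimmed mean of M-values (TMM), which sets most of the circRNAs tested at no change. Calls were made where the p adjusted by Benjamini-Hochberg over all rows tested was under 0.05. The filter kept 65 of the 3179 members (2.04%) and 327 of all rows (3.62%). These 65 held between 33.4% and 43.2% of the member counts of a library, and the other 3114 members were not tested. A member that is high at only 1 age could pass the filter through that age. The p-values measure the spread between libraries, since nothing in the labels says whether the libraries of an age came from separate animals.

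Between P30 and E18.5, 21 of the 65 members changed, 19 of which rose and 2 fell. Over all 327 rows 35.2% were called, 24.8% as higher and 10.4% as lower, so the share of members called (32.3%) was close to that of all rows. The members called as higher were 29.2% and those called as lower 3.08%. Of the 19 that rose, 10 were at 0 throughout E18.5. The other 9 were above 0 in at least 1 E18.5 library, and some of them were at 0 in the other. Their log2 fold changes ran from 2.04 to 5.41, with a median of 3.43, and rest in part on counts near the minimum. Among the 52 members above 0 at both ages, in at least 1 library of each, the median log2 fold change was 0.27. It was 0.16 over the 273 of all rows above 0 at both ages. With scaling by the summed counts of the rows tested, without TMM factors, the median of all 327 rows moved from 0.31 to −0.21. The medians of members and of all rows above 0 at both ages were then −0.25 and −0.37, and 15 members were called higher and 3 lower. The shares of all rows called with this scaling are not given, so these counts say nothing particular of members. These sums leave out the rows not tested, so they are not the library totals used for CPM. The rows tested held 4213 counts of a library total of 6606.5 in E18.5 replicate 1 (TMM factor 1.17). In P30 replicate 3 they held 14036 of 28658 (TMM factor 0.788). Log2 fold changes of the fit between these ages therefore lie above those of CPM. Fits without P30 replicate 2 or without P30 replicate 3 left 1 library at P30 and tested 106 and 105 members instead of 65. Both called fewer members, but the rows tested changed along with the library. In CPM after TMM scaling, both P30 libraries were above both E18.5 libraries in 30 of the 65 members and below them in 18. Over all rows these shares were 43.1% and 28.4%.

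**Figure D3:**
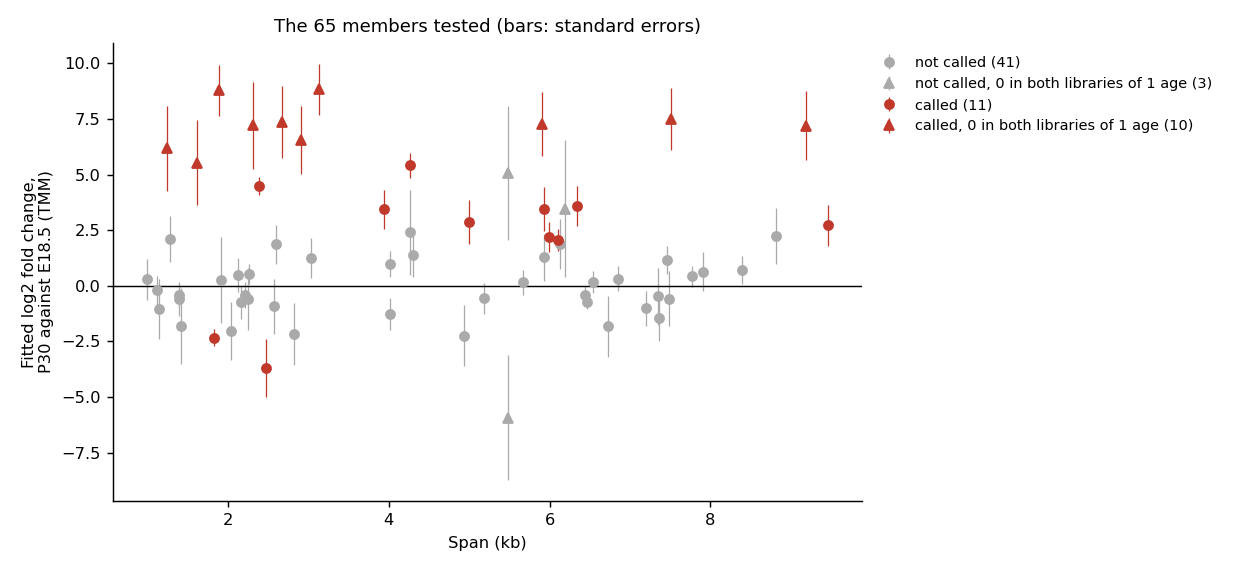
Fitted log2 fold change of P30 against E18.5 after TMM scaling (bars: standard errors) against the span in kb for the 65 members tested. Called members (red) lie along the whole range of spans, 19 above and 2 below 0, and triangles mark members at 0 in both libraries of 1 age, for which the fitted value is no measure of size.

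Of the members that rose and were above 0 in at least 1 E18.5 library, chr5:151406752-151411015 had the largest fold change. It was 5.41 on the log2 scale (standard error 0.573, adjusted p = 1.26e-05 from edgeR). With 0 and 3.5 counts at E18.5, its size is uncertain. The log2 fold change of chr10:25161379-25163760 was 4.50 (standard error 0.405, adjusted p = 3.63e-06 from edgeR). Both were higher in 2 of 2 P30 libraries and stayed called with each library left out. The member chrX:90865844-90871951 (−, 6108 bases) had 5.5 and 12 counts at E18.5, between 7 and 22.5 counts at P1, P7 and P14, and 73 and 89 at P30. Its CPM was nearly level up to P14 (1258 ± 602 at E18.5 and 1212 ± 152 at P14) and 2852 ± 359 at P30 (log2 fold change 2.04, standard error 0.499, adjusted p = 0.00644 from edgeR). This call was lost without P30 replicate 3 (adjusted p = 0.0803). On chromosome 9, the members chr9:83316630-83320568 and chr9:83316630-83322555 (both −, 3939 and 5926 bases) share their lower coordinate and differ in the other end. The shorter had 0 and 4 counts at E18.5 and 37 and 60.5 at P30, and the longer had 2.5 and 0 at E18.5 and 24 and 28.5 at P30. Their log2 fold changes were 3.43 (adjusted p = 0.00811 from edgeR) and 3.45 (adjusted p = 0.0146 from edgeR), and both calls were lost without P30 replicate 3 (adjusted p = 0.0831 and 0.0978). The call of the longer was also lost without P30 replicate 2 (0.0784) and without the unnumbered E18.5 library (0.0887).

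Among the 10 that rose from 0 in both E18.5 libraries, no fold is given. The member chr2:14902933-14906066 (+, 3134 bases) was at 0 at E18.5 and P1 as well, had 3 and 2 counts at P7, 20.5 and 51 on P14, and 99 and 82 at P30 (adjusted p = 1.31e-04 from edgeR). The member chr6:125660574-125662465 (+, 1892 bases) was likewise at 0 in the 4 libraries of E18.5 and P1, and had 9 and 12.5 counts at P7, 26 and 53 on P14, and 71 and 101.5 at P30 (adjusted p = 1.31e-04 from edgeR). In both, no library of P7 to P30 was at 0. The same 4 libraries were at 0 for chr14:52740148-52746059 (+, 5912 bases), which had 18.5 and 8 counts at P7, 33.5 and 21.5 on P14, and 28.5 and 33 at P30. In CPM this member was highest at P14 (2053 ± 1120) and no higher at P30 (1083 ± 97.2) than at P7 (1501 ± 599). This order is of CPM only. The fit divides by the total of the rows tested times a TMM factor (5837 and 1.13 in P7 replicate 1, 13847 and 0.806 in P30 replicate 2). On that scale P30 stands higher against P7 than in CPM, and P30 against P7 was not tested. The 4 libraries of E18.5 and P1 were also at 0 for chrX:81123386-81132572 (+, 9187 bases), with 11 and 4.5 counts at P7, 12 and 19.5 on P14 and 33.5 and 24 at P30. Its CPM stayed near one level from P7 on (875 ± 381, 1082 ± 88.1 and 1015 ± 251), but on the scale of the fit P30 again stands higher against P7. The member chr5:147563271-147566175 (−, 2905 bases) appeared earlier, with 6 and 7.5 counts at P1, and had 21.5 and 15 at P30. In chr19:25483576-25486254 (+, 2679 bases), 3.5 and 0 counts at P1 and 3.5 and 3 at P7 were followed by 25.5 and 19.5 at P14 and 38 and 25.5 at P30. For all 6 the call held with each library left out. Over the 21 called members, 10 had their highest mean CPM at P30, 7 at P14, 1 each at P7 and P1, and 2 at E18.5.

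Of the 2 members that fell, chr4:8678471-8680295 had a log2 fold change of −2.34 (standard error 0.384, adjusted p = 3.89e-04 from edgeR), lower in 2 of 2 P30 libraries, and stayed called with each library left out. The other, of 2476 bases, had 9.5 and 15.5 counts at E18.5 and 0 and 3.5 counts at P30 (log2 fold change −3.69, adjusted p = 0.0415 from edgeR). Leaving out P30 replicate 2 ended its call, as did leaving out any library of E18.5 or P1 (adjusted p from 0.0664 to 0.239). The most abundant member, chr11:108295440-108301910, was not called between these ages (log2 fold change −0.75, adjusted p = 0.0641 from edgeR).

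**Figure D4:**
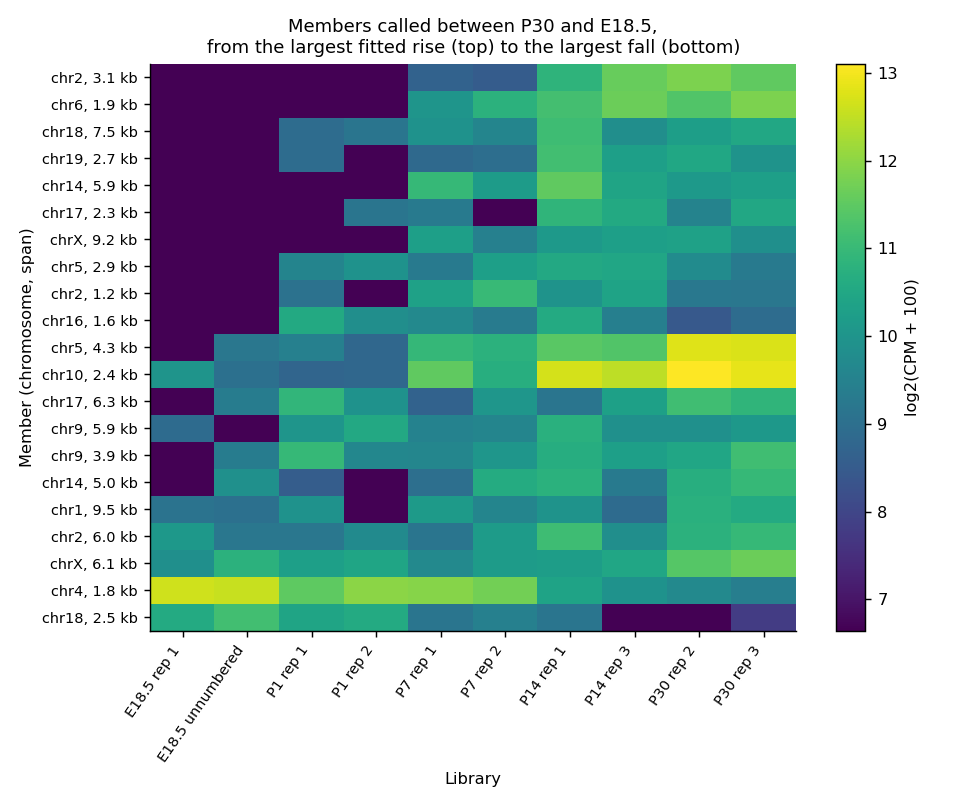
Level of the 21 members called between P30 and E18.5 (rows, named by chromosome and span) in each of the 10 libraries (columns), as log2(CPM + 100), ordered from the largest fitted rise to the largest fall. Dark cells are values of 0: the top 10 rows are at 0 in both E18.5 libraries, and the bottom 2 rows are the members that fell.

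Across all 5 ages together, 22 of the 65 members changed (33.8%), beside 36.7% of all rows, and 17 of these were also called between P30 and E18.5. Fits without P14 replicate 3, P30 replicate 2 or P30 replicate 3 left 1 library at that age and tested 105, 106 and 105 members. Each called fewer than 22 across the ages, but the rows tested changed along with the library. Members called across the ages but not between P30 and E18.5 include patterns that rose and fell again. The member chr1:38591751-38593791 (−, 2041 bases) had 2.5 and 5.5 counts at E18.5, 26.5 and 18.5 at P1, 8.5 and 12 on P7, 0 and 6 on P14, and 4.5 and 0 at P30, so that both P1 libraries stood above all others (adjusted p = 0.0411 from edgeR). Chosen after its values were seen, it lies outside the rule for named circRNAs. The most abundant member, chr11:108295440-108301910, was also called across the 5 ages (adjusted p = 0.00106 from edgeR), a test that names no age. It was not called from P7 to P14 (adjusted p = 0.265 from edgeR) or from P14 to P30 (adjusted p = 0.101 from edgeR).

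At single steps few members were called. From E18.5 to P1 none of the 65 members passed edgeR's test, nor did any of the 327 rows (0% called). DESeq2 also called 0 members, and 8 members had an unadjusted p under 0.05, beside 27 of all 327 rows. Without the unnumbered E18.5 library 1 member was called. From P1 to P7, 4 members changed beside 4.28% of all rows: chr10:25161379-25163760 rose by 2.71 on the log2 scale (adjusted p = 0.0155 from edgeR), chr6:125660574-125662465 and chr14:52740148-52746059 rose from 0 (both adjusted p = 0.0241 from edgeR), and chr11:108295440-108301910 changed by −1.37 on that scale (adjusted p = 0.0297 from edgeR). From P7 to P14, 3 members rose beside 5.50% of all rows called. These were chr10:25161379-25163760 by 1.84 on the log2 scale (adjusted p = 0.00504 from edgeR), chr2:14902933-14906066 by 3.46 (adjusted p = 0.0115 from edgeR) and chr2:25821183-25822468 (adjusted p = 0.0298 from edgeR). From P14 to P30, 1 member rose, chr5:151406752-151411015 by 1.71 on the log2 scale (standard error 0.380, adjusted p = 0.0245 from edgeR), beside 2.75% of all rows. Of these 8 calls, 0 held with each library left out, and 0 were left without P14 replicate 3, without P30 replicate 2 or without P30 replicate 3, also where these libraries are not of the ages compared.

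The member chr2:25821183-25822468 (−, 1286 bases) came and went between libraries. It had 0 and 13.5 counts at E18.5, 23.5 and 0 at P1, 0 in both libraries of P7, 38.5 and 52 on P14, and 77.5 and 51.5 at P30. Its libraries of E18.5 and P1 disagreed within the age. Members had 181 values of at least 20 counts in a library. For 3 of these (1.66%), beside 1.37% over all rows, the member was at 0 in the other library of that age. A member with at least 20 counts in both libraries of an age enters once for each. The other such values were of chr9:122041011-122046719 (+, 5709 bases), which had 175.5 counts in P14 replicate 3 and 0 in the other 9 libraries, and of chrX:68370656-68372569 (+), with 20 counts in P14 replicate 3 and 0 in P14 replicate 1. These were named after their values were seen.

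Many members share a back-splice site with another circRNA. Of the 2123 members above 0, 875 (41.2%) have their start or end in common with another row above 0 on the same strand, beside 25.5% of circRNAs under 1 kb, 61.5% of those of 10 to 50 kb, 74.2% of those of 50 kb or more and 52.1% of all rows named by position. The start is shared by 501 members, the end by 508, and both, each with another row, by 134. Rows linked by shared ends were taken as a family. The link can run through other rows, so not every pair of rows in a family has an end in common. Rows that do share a splice site are not independent of each other.

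In the family with the most counts (chr4:102711837-102776009, − strand), 4 of the 16 rows above 0 were members, with 36.5 of 1384.5 counts summed over the libraries. In the second (chr2:37436193-37502805, −), 12 rows were above 0, among them chr2:37496371-37502805, which ends with its longer partners at the same position. This member held 34.9% ± 4.02 of the counts of the family at E18.5, 29.8% ± 1.07 at P1, 33.5% ± 12 at P7, 18.9% ± 5.74 at P14 and 18.0% ± 1.94 at P30 (SD, n = 2). The partner of 66.6 kb with the same end held 7.20% ± 2.27 at E18.5 and 28.4% ± 1.95 at P30. In both, the shares of the P30 libraries did not overlap those of the E18.5 libraries. Per circRNA the partner of 66.6 kb rose (log2 fold change 2.52, standard error 0.523, adjusted p = 0.00240 from edgeR), while the member was not called (log2 fold change −0.40, standard error 0.389, adjusted p = 0.479 from edgeR), and the difference between both changes was not tested. In the third family (chr14:52738871-52778129, +), 8 of 18 rows were members with 324.5 of 1234 counts, and all 8 were at 0 in the libraries of E18.5 and P1. There chr14:52740148-52746059 held 13.1% ± 2.58 of the counts at P7, 14.1% ± 4.98 at P14 and 9.73% ± 1.28 at P30.

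The next families in this order hold the 3 most abundant members. On chromosome 10, chr10:25161379-25163760 was the sole row of its family above 0 at E18.5 and P1. From P7 on, longer rows of the family were listed, and the member held 71.5% ± 13.2 at P7, 55.7% ± 6.74 at P14 and 55.5% ± 0.239 at P30 (SD, n = 2). The partner of 19.3 kb that starts at the same base had 0 counts in the 4 libraries of E18.5 and P1, 4.5 and 0 on P7, 17 and 20.5 on P14, and 52 and 56 at P30, and was called too (adjusted p = 0.00146 from edgeR). With 3 to 6 counts of the member in the early libraries, partners at the P30 share would lie near the minimum of 2 counts, so their presence there could not be read. On chromosome 11, chr11:108295440-108301910 held 74.5% ± 4.90 of its family at E18.5, 60.0% ± 0.636 at P1, 47.0% ± 0.376 at P7, 42.0% ± 2.16 at P14 and 52.6% ± 1.39 at P30. On chromosome 4, chr4:8678471-8680295 shares its start with a circRNA of 34.4 kb, and both fell between E18.5 and P30. The longer had 60 and 53 counts at E18.5 and 36.5 and 36.5 at P30 (log2 fold change −1.77, standard error 0.295, adjusted p = 4.31e-04 from edgeR), and the share of the member in the family was 40.7% ± 2.50 at E18.5, 31.4% ± 4.14 at P1, 39.5% ± 0.0401 at P7, 31.4% ± 2.17 at P14 and 32.6% ± 2.15 at P30.

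**Figure D5:**
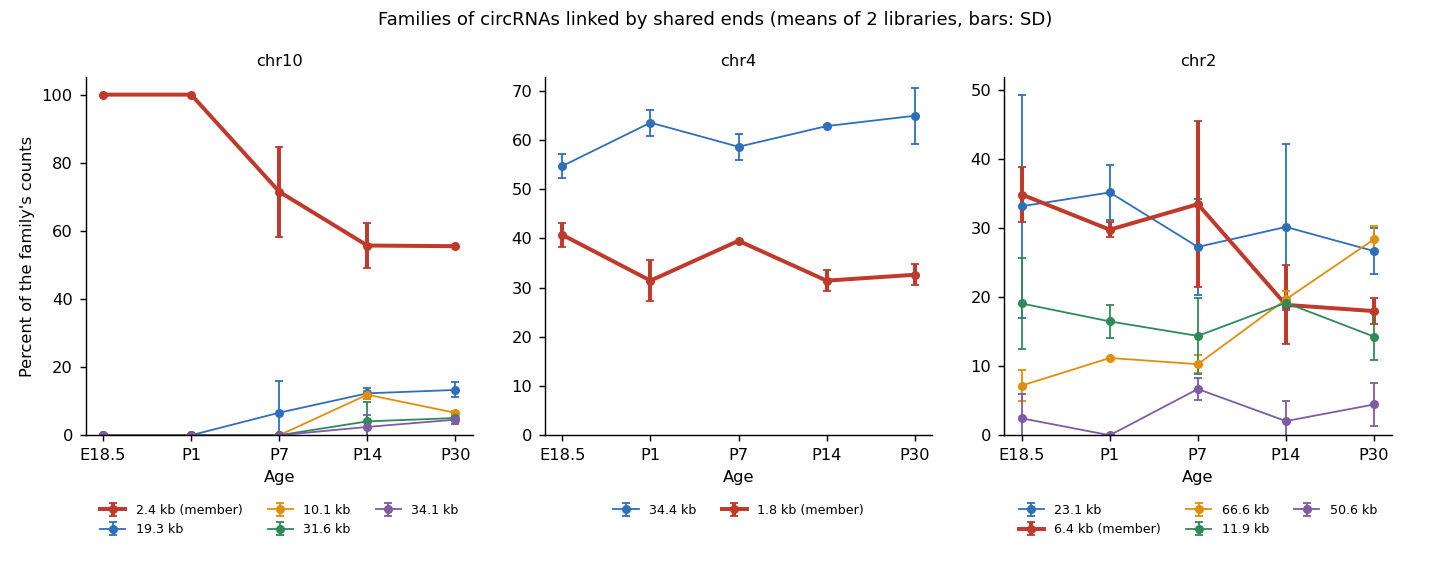
Percent of the counts of a family (rows linked by shared ends) held by each of its rows against age, as means of 2 libraries with SD, for the families on chr10, on chr4 (that of the 1.8 kb member) and on chr2, with the 1 to 10 kb member in thick red and up to 4 partners by span. The chr10 member went from 100% at E18.5 to 55.5% at P30, the chr4 member stayed between 31.4% and 40.7%, and the chr2 member went from 34.9% to 18.0%.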

How the data were processed

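Ribosome-depleted total RNA of C57BL/6 mouse retina was sequenced at 5 ages, 2 libraries each. The authors deposited estimated counts of circRNAs (expected counts, not normalized, in steps of 0.5 from a minimum of 2). The submitters' notes name Trimmomatic and mm9, while the caller of the circRNAs and the aligner are not stated in the labels or the study's methods. The file counts starts from 0, so 1 was added. Age and number in the column names gave the library. For 1 of the E18.5 columns no title has that number, so it entered as an unnumbered replicate.

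Counts were rounded (values ending in 0.5 to the even number). Rows were kept by filterByExpr (minimum count 10, minimum total 15), and edgeR 4.0.16 in R 4.3.3 fitted them after TMM scaling over all 10 libraries with age as a factor, which left 5 residual degrees of freedom at a common dispersion of 0.125. The fit was also run on simulated counts at a dispersion of 0.125, with changes set at P30 only. These counts copied neither the minimum of 2 nor rows absent at an age, so the run cannot show how such rows fare. Summaries used Python 3.11.15, pandas 2.3.3 and matplotlib 3.10.9. CPM is per 1000000 listed counts.

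CircRNAs named by position are the 10 members with the highest mean CPM, up to 8 rises and 8 falls from E18.5 to P30 without overlap between these ages and with 5 or more counts on average, up to 2 rises and falls per step, the 3 families with the most counts, and the rows next to the span limits. Fewer are printed. Members named outside this rule (those on chromosomes 9 and 1, 2 on X, those of the closing observations) and the families on chromosomes 10, 11 and 4 that follow the first 3 were chosen after their values were seen. The members and lists were chosen with earlier results of these data known. Gene lists were not used. Alternatives were other scaling, DESeq2 1.42.0, other filters, fits of 2 ages, a replicate block, each library left out, other listing minimums, denominators and span limits, and, added after seeing the data, unrounded values, values ending in 0.5 rounded up and the span bins without 2 members.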

Additional observations from a re-analysis of the deposited data

How the results depend on the processing

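Counts of called members are given in the order across the 5 ages, P30 against E18.5, P7 against P1, P14 against P7 and P30 against P14, where the results were 22, 21, 4, 3 and 1 of 65 members tested. The number tested differed between alternatives, with 120 for the replicate block and 105, 106 and 105 without P14 replicate 3, P30 replicate 2 or P30 replicate 3. Shares over all rows are not given for the alternatives, so the counts cannot be set directly against those of the main fit. Without a low-count filter the counts were 4, 6, 0, 0 and 0 of 858 members tested. When all libraries of some age had to reach 10 counts they were 36, 44, 2, 2 and 0 of 103 members tested, and 19 of the 44 were among the 21. Fitting only the 2 ages compared gave 30, 0, 7 and 1 for the last 4. DESeq2 called 7 between P7 and P1. With the replicate block over numbered libraries they were 5, 5, 0, 0 and 0, and the deviations of same-numbered libraries had correlations from −0.0656 to 0.149, over 0.1 in 1 of 10 pairs, so the numbers were not taken as pairs. Leaving out each library in turn gave 8 to 28, 13 to 27, 0 to 9, 0 to 5 and 0 to 2, and 0 to 1 between P1 and E18.5. No call of a member reversed its direction under any alternative, and 4 of the 21 held under all of them.

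The ratio of members listed at P30 to E18.5 was 3.91, 4.56 with at least 5 counts and 1.39 at equal totals. The difference in the share of counts between P30 and E18.5 was 5.04 percentage points of all counts, −5.57 points of the counts named by position, and 3.64 points with spans of 1500 to under 8000 bases. Leaving out a library kept both near these values. With 2 libraries per age, most changes below several-fold in members of few counts cannot be seen, and 3114 members were not tested at all.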

Other observations

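Some members with at least 10 counts have the same values as another in all 10 libraries. The members chr1:66458981-66463440 and chr8:87476543-87479002 both had 10.5 counts in P30 replicate 2, 6.0 in P30 replicate 3 and 0 elsewhere. The members chr3:68022200-68023213 and chr4:148596336-148600465 both had 10.5 counts in P30 replicate 3 and 0 elsewhere. They lie on different chromosomes and were kept as separate rows. Among members listed in 1 library only, the highest count after the 175.5 of chr9:122041011-122046719 was 18.5, of chr4:102767934-102769380 in P30 replicate 2.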
